A study of Mus musculus with 6 samples.

Results

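Interferon-stimulated genes are the genes that cells switch on when they sense interferons, the cytokines released against viruses. The levels of these genes were compared between cultured lung fibroblasts (LFBs) with and without Atf4, the transcription factor that carries the Integrated Stress Response into gene expression. The members were a list of 33 named genes, and each was read from the transcript cluster, the array's unit for a gene, that the platform annotation pairs with that gene alone. Where a gene had several such clusters, the one with the highest mean over all arrays was taken. Of the 33 genes 32 had a cluster, out of 30738 genes that could be read in this way, and Ifi44 was not analysed here. Of the 32 genes 10 rose in LFBs lacking Atf4, where 3.88% of all genes rose, and 0 fell. The rises were led by Oas2, Usp18, Ifit3, Rsad2 and Bst2, which were between 2.32-fold and 2.80-fold higher.

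The cells came from lungs of young adult C57BL/6 mice of both sexes that were either Atf4 wt/wt (LFB WT/WT) or Atf4 Δ/Δ (LFB Δ/Δ), and they were taken to passage 2. In the paper, mice of both genotypes carried a tamoxifen-activated Cre driven from the ubiquitous Rosa26 locus and received tamoxifen. In the Atf4 Δ/Δ mice loxP sites flanked exons 2 and 3 of the gene. The Cre removed that part, so the deletion was not limited to fibroblasts. Lungs of several mice were minced and digested with collagenase together, and no sorting step was described, so other lung cells that adhere could remain. The medium held 4-hydroxytamoxifen, antibiotics, non-essential amino acids and β-mercaptoethanol for both genotypes, and no interferon, virus or other stimulus was named for either. There were 3 arrays of each genotype, labelled biological replicates. Whether the replicates of a genotype came from different mice was not stated, and the tests therefore see only the scatter among these cultures, which may be technical.

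In the canonical pathway, type I interferons bind the receptor IFNAR, which activates the kinases JAK1 and TYK2. These phosphorylate STAT proteins such as STAT2, which joins IRF9 in a complex that binds the interferon-stimulated response element (ISRE) in front of the target genes. Interferon-γ acts through its own receptor and on gamma-activated sites (GAS). Many of the targets block viral RNA, others sense it, and a few, such as Usp18, dampen the signal. In the lung, fibroblasts and macrophages both express such genes, and a basal level is seen without infection.

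The start regions of the members showed which of them carry the letters of an ISRE. RefSeq promoter sequences (GRCm38.p6) were available for 24 of the 32 genes, and the 250 bases before the annotated start were searched on both strands. The ISRE letters searched were GAAA, any 2 bases, and GAAA again, and neighbouring matches may overlap. They were found before 10 of the 24 genes (41.7%), against 936 of 27025 genes with windows of the same length (3.46%). Of the 6 genes with a promoter that rose, 4 held a match (Bst2, Ifit1, Ifit3 and Rsad2), and Irf7 and Trim25 did not. No sequence was available for Oas2, Usp18, Parp14 and Zbp1, which rose, or for Dhx58, Mx1, Mx2 and Rtp4. Of the 18 that did not pass the test, 6 held one, namely Cxcl10, Gbp2, Gbp3, Isg15, Oas3 and Stat2. The windows below show the matches of the 4 genes that rose and of 3 that did not pass the test. Capitals mark the ISRE letters, read on the gene's own strand, so that TTTC, 2 bases and TTTC are the same element on the opposite strand.
Ifit1 (chr19:34640763-34640835, + strand): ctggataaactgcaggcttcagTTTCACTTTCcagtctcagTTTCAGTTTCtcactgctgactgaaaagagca
Ifit3 (chr19:34583351-34583438, + strand): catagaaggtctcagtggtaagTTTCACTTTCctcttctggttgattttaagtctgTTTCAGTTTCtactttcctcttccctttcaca
Bst2 (chr8:71537565-71537624, - strand): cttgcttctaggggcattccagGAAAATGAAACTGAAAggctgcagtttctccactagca
Rsad2 (chr12:26456541-26456594, - strand): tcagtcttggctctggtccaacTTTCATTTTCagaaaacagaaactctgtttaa
Isg15 (chr4:156200853-156200918, - strand): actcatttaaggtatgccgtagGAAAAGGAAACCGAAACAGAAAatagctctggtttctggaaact
Gbp3 (chr3:142559977-142560036, + strand): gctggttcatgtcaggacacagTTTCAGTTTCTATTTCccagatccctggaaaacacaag
Cxcl10 (chr5:92349071-92349124, - strand): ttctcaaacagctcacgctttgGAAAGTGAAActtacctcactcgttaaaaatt

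Matches were single in Rsad2 and Cxcl10, paired in Ifit1, Ifit3, Bst2 and Gbp3, and 3 overlapping matches ran together in Isg15. Ifit1 and Ifit3 held the same pair of matches, TTTCACTTTC and TTTCAGTTTC, at different spacing. The run of matches in Isg15 was the longest of those printed, and Isg15 was among the genes that stayed under the fold threshold. The GAS letters searched, TTCNNNGAA, were found before 4 of the 24 genes (16.7%), namely Bst2, Ifit2, Irf1 and Samhd1, against 8.13% of all genes. In Bst2 the GAS match shared 3 bases with the first ISRE match. The letters TGATGNAA of the C/EBP-ATF response element, to which ATF4 binds with a C/EBP partner, were found before 0 of the 24 genes, against 3.91% of all genes. At so low a share few or no matches would be found among 24 genes, so no lack of them can be read from this. In the short stretch after the start, which these counts leave out, Gbp3 held a match to these letters, Ifi35 one to the GAS letters, and Ddx58 and Ifih1 each one to the ISRE letters. A match of letters is a description of the sequence and not a measured binding site.

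All values are the deposited log2 values, so a difference of 1 is 2-fold. Levels cannot be set against each other between genes, because each cluster has its own probes. A gene was said to have risen or fallen where limma's moderated test gave a p of at most 0.05 after Benjamini-Hochberg adjustment over the 65956 clusters and the fold change was above 1.5. Over all clusters 4.85% passed in either direction. The targeted gene, Atf4, read 8.67, 8.95 and 8.73 in LFB WT/WT and 7.73, 7.49 and 7.48 in LFB Δ/Δ. The groups did not overlap, and Atf4 fell by 1.22 (adjusted p = 0.000497). The 6 array medians lay between 4.87 and 4.91, and pairs of arrays correlated at 0.997 or more within a genotype and at 0.988 to 0.993 between genotypes. The median of all clusters differed by less than 0.01 between genotypes. Of a list of 10 housekeeping genes 7 had a cluster, and these were 0.22 higher in LFB Δ/Δ on average, so each result was also computed with the arrays centred on them.

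In LFB Δ/Δ, 10 of the 32 interferon-stimulated genes rose, 0 fell and 22 did not pass the test. Over all genes 3.88% rose and 2.94% fell, and among genes at or above the median cluster 6.38% rose. A further 8 members had an adjusted p of at most 0.05 with a fold under the threshold, which makes 18 without a fold threshold, where 10.9% of all genes were higher. In 26 members all LFB Δ/Δ arrays lay above all LFB WT/WT arrays, as in 22.4% of all genes, in 1 (Irf1) all lay below, and in 5 the groups overlapped. The median log2 difference of the members was 0.41 (1.33-fold), and that of all genes was 0.02. Centred on the housekeeping genes, the median of the members was 0.20, 24 of 32 differences in place of 29 were above 0, and 6 members rose, namely Oas2, Usp18, Ifit3, Rsad2, Bst2 and Irf7. With Student's t-test per cluster, the test of the study's general statistics, 3 members passed (Oas2, Bst2 and Trim25), and with limma's treat against 1.5-fold 2 did (Oas2 and Bst2). With 3 arrays against 3, an exact two-sided permutation test of a single gene cannot go below p = 0.1, and the smallest p was reached by 27 members.

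**Figure D1:**
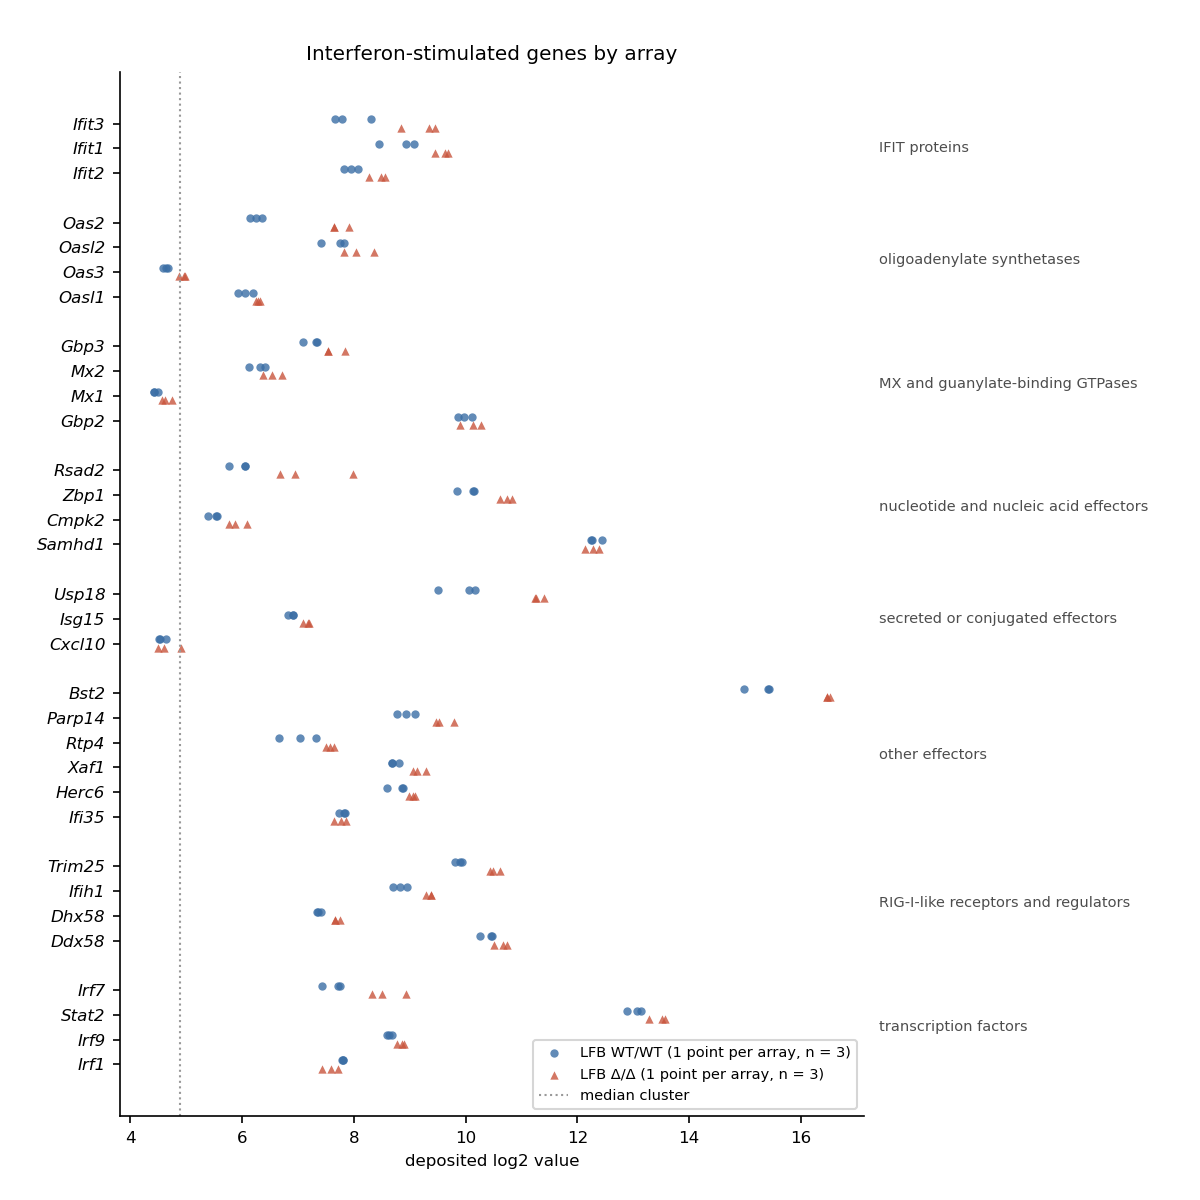
Deposited log2 value (x axis) of the 32 interferon-stimulated genes (y axis, grouped by role) on each array, with circles for the 3 LFB WT/WT arrays, triangles for the 3 LFB Δ/Δ arrays and a dotted line at the median cluster. In 26 genes all triangles lie to the right of all circles, and in Irf1 all lie to the left.

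**Figure D2:**
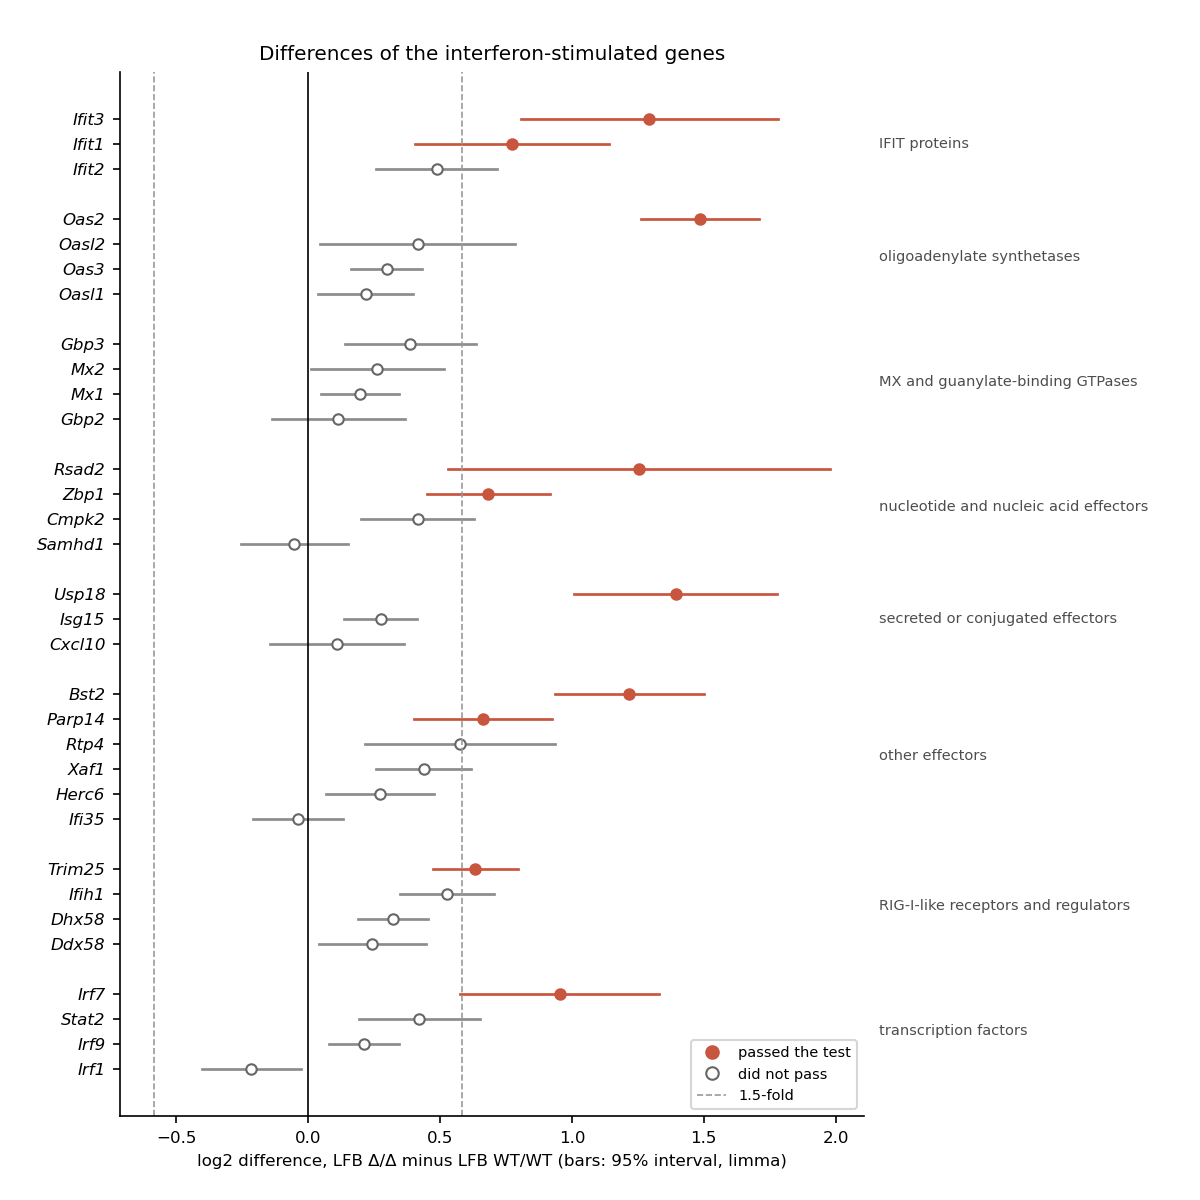
Log2 difference, LFB Δ/Δ minus LFB WT/WT (x axis), of each gene (y axis, grouped by role), with the limma 95% interval, filled points for the 10 genes that passed the test and dashed lines at 1.5-fold. Oas2 and Usp18 lie farthest to the right, and the interval of Rsad2 is the widest.

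The cultures differed in their cell markers as well as in genotype, and the marker values are given beside those of the interferon-stimulated genes. Of 26 measured leukocyte markers 21 rose in LFB Δ/Δ, with a median log2 difference of 2.56 (5.90-fold). The log2 of their summed level lay between 17.19 and 17.81 in LFB WT/WT and between 19.34 and 19.64 in LFB Δ/Δ. This sum leans on the brightest clusters, above all Lyz2, which read 16.66 to 17.34 against 18.46 to 18.68. The rises included Ptprc (CD45), with a log2 difference of 3.01, Adgre1 with 3.65 and Csf1r with 3.29, all known from macrophages. The lymphocyte and dendritic cell markers Cd3e, Ms4a1, Ncr1 and Flt3 were low, between 3.82 and 4.36 on every array. Other listed markers not confined to macrophages rose, with log2 differences of 3.11 for Itgax, 3.01 for S100a8 and 2.46 for Siglecf. All of these were named after their values were seen, and which leukocyte types were present was not tested. Of 9 fibroblast markers 5 fell, with a median log2 difference of -0.91, where 2.94% of all genes fell. Of 6 mesothelial markers 5 fell and 1 rose, with a median of -3.66, the largest of the marker lists in size. Lrrn4 had a difference of -5.43, Upk1b one of -4.81 and Upk3b one of -4.73. All 6 endothelial markers were higher on every LFB Δ/Δ array than on any LFB WT/WT array, as were 22.4% of all genes. Their median difference was 0.40. Emcn (1.86) and Pecam1 (0.62) rose, the latter named after its values were seen, where 3.88% of all genes rose. The other 4 did not pass the test, among them Cdh5 (1.13, limma, adjusted p = 0.0534). Of 7 epithelial markers Cdh1 rose by 1.12, Krt8 fell by 0.77 and Krt18 fell by 0.89, and 4 did not pass the test. The mesenchymal markers Fn1 and Vim read 16.98 to 18.04 on all arrays. Their differences of -0.55 (limma, adjusted p = 0.00513) and 0.21 (adjusted p = 0.0345) were under the fold threshold. Col1a1 fell by 2.22 but still read 13.98 to 15.24 in LFB Δ/Δ. The other fibroblast markers that fell were Col3a1 (-2.55), Col1a2 (-2.46), Thy1 (-1.82) and Pdgfrb (-0.91). Of these, Col1a1, Col3a1, Col1a2 and Thy1 were named after their values were seen. The same holds for Dcn and Lum, of the same list, which did not pass the test. Dcn went the other way, reading 15.51 to 15.61 against 15.71 to 15.78. Its groups did not overlap, and its difference was 0.18 (limma, adjusted p = 0.0867). Lum had a difference of -0.45 (adjusted p = 0.164) with overlapping groups. Fn1, Vim and Col1a1 were bright in both genotypes, with macrophage markers beside them. Leukocytes express many interferon-stimulated genes, and in bulk RNA a change in the number of cells of a type cannot be told apart from a change in RNA per cell. The part of the cell makeup in the differences below was not tested.

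The order of the arrays within a genotype was counted for both lists. Within LFB WT/WT, replicate 1 was the highest in 19 of 26 leukocyte markers, while replicate 2 was the highest in 22 of 32 interferon-stimulated genes. LFB WT/WT replicate 3 was the lowest of its group in 27 of the 32, and its median member lay 0.13 below the group mean. Within LFB Δ/Δ, replicate 1 was the highest in 16 of the 32 members and in 14 of 26 leukocyte markers, more often than either other replicate in both lists. Replicate 2 was the lowest in 21 of 26 leukocyte markers, whereas the lowest member values were spread over the replicates (10, 10 and 12 genes). Replicates have no order, and with 3 arrays a group these counts describe the arrays only. When each array was left out in turn, between 7 and 11 members rose. The lowest count, 7, was without LFB WT/WT replicate 3, where the median difference was 0.33.

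**Figure D3:**
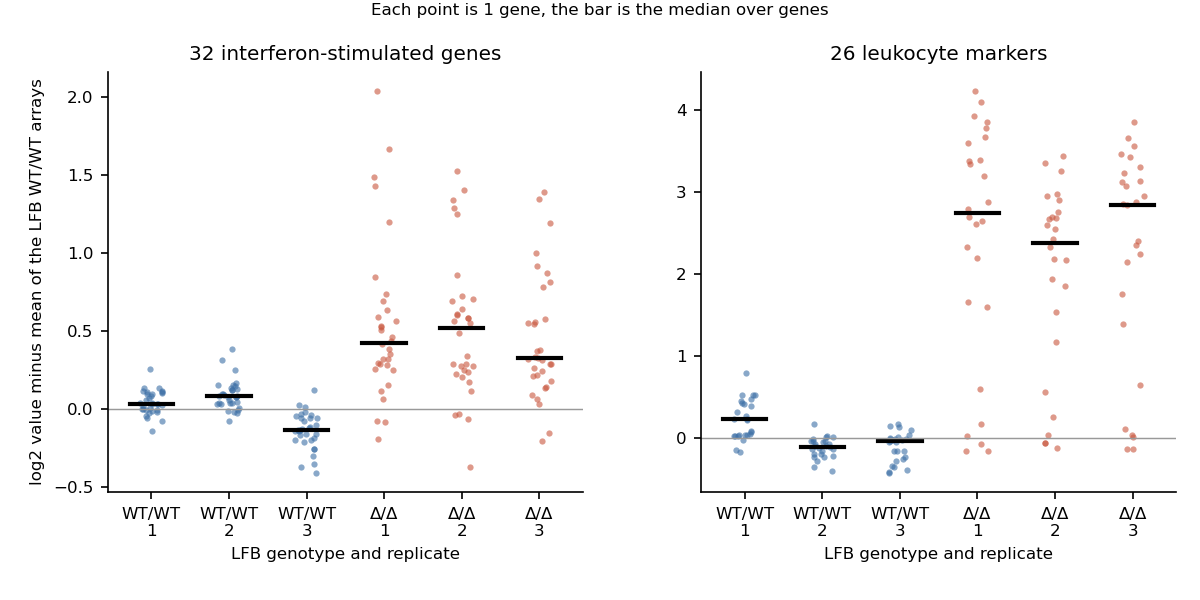
Deposited log2 value minus the mean of the LFB WT/WT arrays (y axis) on each array (x axis), for the 32 interferon-stimulated genes (left) and 26 leukocyte markers (right, on a wider scale). Each point is 1 gene and each bar the median, which for the interferon-stimulated genes is 0.43, 0.52 and 0.33 and for the leukocyte markers 2.74, 2.38 and 2.85 in LFB Δ/Δ replicates 1, 2 and 3.

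The IFIT proteins bind viral RNA that lacks the host's cap marks and block its translation. Of the 3 members 2 rose, where 3.88% of all genes did. Ifit3 read 7.78, 8.31 and 7.67 in LFB WT/WT and 9.35, 9.45 and 8.84 in LFB Δ/Δ. The lowest LFB Δ/Δ array was above the highest LFB WT/WT array, and the log2 difference was 1.29 ± 0.21 (s.e., adjusted p = 0.00707). Ifit1 read 8.94, 9.08 and 8.45 against 9.46, 9.68 and 9.64, again without overlap, with a difference of 0.77 ± 0.16 (adjusted p = 0.0183). Ifit1 missed the threshold without LFB Δ/Δ replicate 2 or 3 (adjusted p = 0.0548 and 0.0569). Ifit2 read 7.96, 8.08 and 7.82 against 8.48, 8.56 and 8.27. The groups of Ifit2 did not overlap, and its difference of 0.49 (1.40-fold, adjusted p = 0.0173) was under the fold threshold.

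The IFIT genes lie together on chromosome 19, where 6 of them are found within 7 neighbouring genes. The relatives outside the list were looked at after their values were known. Ifit3b, a near copy of Ifit3, rose with a difference of 1.12 (adjusted p = 0.00551), and because its probes may bind transcripts of Ifit3, the pair is uncertain as separate genes. Ifit1bl1 and Ifit1bl2 were at 3.99 to 4.71 on all arrays, below the median cluster, with differences of -0.11 and 0.01. Of the 6 genes of this cluster 3 thus rose, where 3.88% of all genes did, and 3 did not pass the test.

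Oligoadenylate synthetases are activated by double-stranded RNA and make the short oligoadenylates that switch on RNase L. Oas2 read 6.36, 6.26 and 6.14 in LFB WT/WT and 7.92, 7.66 and 7.64 in LFB Δ/Δ. The gap between the groups exceeded 1 on the log2 scale, and the difference of 1.49 ± 0.10 (2.80-fold, adjusted p = 0.00023) was the largest of the 32 genes. Oas3 read 4.65, 4.68 and 4.59 against 4.96, 4.88 and 4.98, around the median cluster of 4.90, with a difference of 0.30 (adjusted p = 0.0149). The groups of Oas3 did not overlap, but the fold of 1.23 was under the threshold. The synthetase-like genes Oasl1 and Oasl2, whose products resemble the synthetases, had differences of 0.22 (adjusted p = 0.124) and 0.41 (adjusted p = 0.154). Neither passed the test, and the difference of Oasl1 was 0.00 when the arrays were centred on housekeeping genes.

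The OAS genes form a cluster on chromosome 5, in which 6 measured genes lie within 9 neighbours. Of these 6, Oas2, Oas1a and Oas1g rose, where 3.88% of all genes did, and Oas3, Oas1b and Oas1c did not pass the test. Oas1a, the RNA-activated synthetase most like the single human OAS1, read 7.24, 7.14 and 6.96 against 8.43, 8.33 and 8.21. Its groups were far apart, with a difference of 1.21 (2.31-fold, adjusted p = 0.000362). Oas1g had a difference of 1.18 (adjusted p = 0.000331), and as a close copy of Oas1a it may share probes with it, so the pair is uncertain as separate genes. Oas1b and Oas1c, with differences of 0.16 and 0.12, stood beside these on the same chromosome. Oas1g, Oas1b and Oas1c were named after their values were seen.

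**Figure D4:**
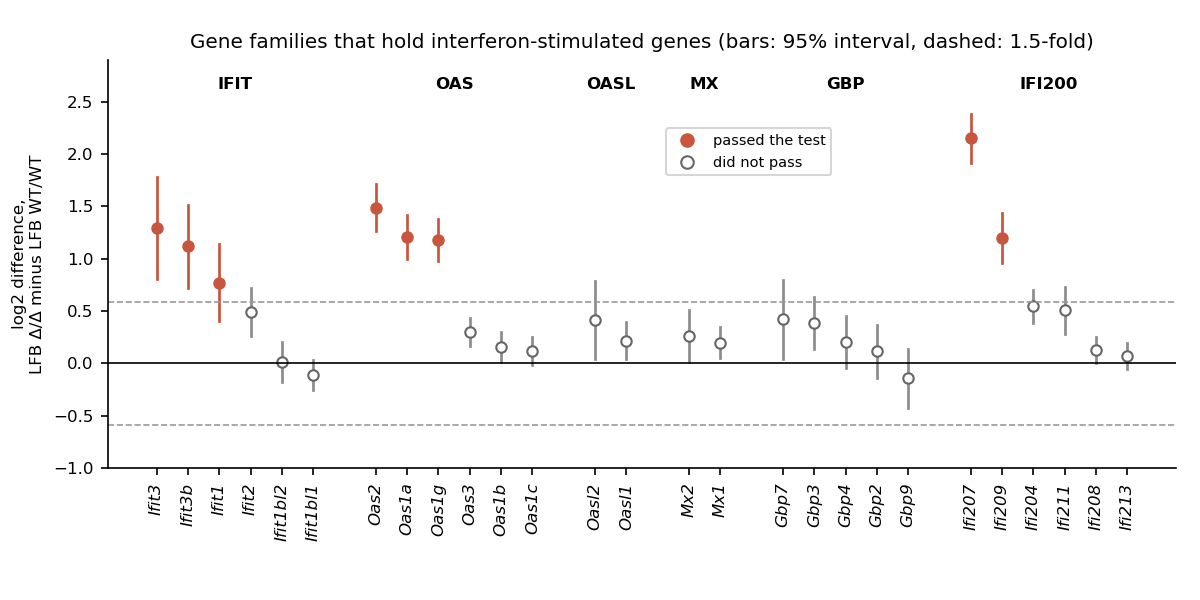
Log2 difference, LFB Δ/Δ minus LFB WT/WT (y axis), of the measured genes (x axis) of 6 families, with the limma 95% interval, filled points for genes that passed the test and dashed lines at 1.5-fold. IFIT (3 of 6), OAS (3 of 6) and IFI200 (2 of 6) hold genes that rose, and OASL, MX and GBP hold 0. Of all genes 3.88% rose, so 0 in a family this small does not set it apart.

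The MX and guanylate-binding proteins are large GTPases that attack viral nucleocapsids or the vacuoles of microbes. Of the 4 members 0 passed the test, where 3.88% of all genes rose and 2.94% fell. Mx1 read 4.49, 4.42 and 4.43 against 4.74, 4.57 and 4.63. Both groups of Mx1 were below the median cluster, and the sign of its difference, 0.20 (adjusted p = 0.0956), turned when values under the array median were raised to it and when the arrays were centred on housekeeping genes. Mx2, a relative of Mx1, had a difference of 0.26 (adjusted p = 0.185) with overlapping groups. Gbp3 read 7.32, 7.34 and 7.09 against 7.53, 7.83 and 7.54, a difference of 0.39 (adjusted p = 0.0556) without overlap. Gbp2, which responds above all to interferon-γ, read 9.97, 10.12 and 9.87 against 9.91, 10.28 and 10.13. These groups overlapped, and the difference of 0.11 (95% interval -0.14 to 0.37) was negative with housekeeping centring. The interval of Gbp2 did not reach the 1.5-fold threshold of 0.58, whereas that of Gbp3 reached 0.64. Of 5 measured GBP genes, on chromosomes 3 and 5, 0 passed the test. At the share of all genes, 0 among so few does not set the MX and GBP families apart.

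Among the effectors that act on nucleotides and nucleic acids, 2 of 4 rose, where 3.88% of all genes did. Rsad2 encodes viperin, which turns CTP into a chain terminator of viral RNA polymerases. Rsad2 read 6.05, 6.05 and 5.76 in LFB WT/WT and 7.995, 6.68 and 6.96 in LFB Δ/Δ. LFB Δ/Δ replicate 1 stood more than 1 above the other two, and the difference of 1.25 ± 0.31 (adjusted p = 0.0379) had the largest s.e. of the members. Its adjusted p was between 0.0605 and 0.125 without any 1 of the LFB WT/WT arrays or without LFB Δ/Δ replicate 3. Cmpk2, a mitochondrial nucleotide kinase whose gene neighbours Rsad2, had a difference of 0.42 (1.33-fold, adjusted p = 0.0249) without overlap. Zbp1, a sensor of Z-form nucleic acid that can start necroptosis, read 10.16, 10.13 and 9.85 against 10.61, 10.74 and 10.83. The groups were apart, and Zbp1 rose by 0.68 ± 0.10 (adjusted p = 0.00482), although without LFB WT/WT replicate 3 the difference of 0.58 was just under the fold threshold. Samhd1, which breaks down deoxynucleotides, read 12.27, 12.25 and 12.45 against 12.13, 12.29 and 12.39. Its groups overlapped, and the difference of -0.05 (95% interval -0.26 to 0.15) stayed well inside the threshold on either side.

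Isg15, the ubiquitin-like protein that is joined to other proteins or secreted, did not pass the test, and Usp18, the protease that removes it, rose. Usp18, which is also a brake on the type I receptor, read 10.16, 10.06 and 9.50 in LFB WT/WT and 11.40, 11.25 and 11.26 in LFB Δ/Δ. The lowest LFB Δ/Δ array was more than 1 above the highest LFB WT/WT array, and the difference was 1.39 ± 0.16 (2.63-fold, adjusted p = 0.00194). Isg15 read 6.91, 6.92 and 6.83 against 7.18, 7.09 and 7.21. The arrays of each genotype agreed closely, and the difference of 0.28 (1.21-fold, 95% interval 0.14 to 0.41, adjusted p = 0.023) was under the fold threshold. Cxcl10, the chemokine that draws T cells, read 4.54, 4.64 and 4.51 against 4.92, 4.50 and 4.60. These values were near or below the median cluster with overlapping groups, and the difference of 0.11 (adjusted p = 0.629) was negative without LFB Δ/Δ replicate 1. A difference between Isg15 and Usp18 was not tested.

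Among the other effectors Bst2 and Parp14 rose. Bst2, or tetherin, holds budding virus at the cell surface, and also serves as a marker of plasmacytoid dendritic cells, the main producers of type I interferon in blood. It read 15.41, 15.43 and 14.98 in LFB WT/WT and 16.47, 16.52 and 16.47 in LFB Δ/Δ. All LFB Δ/Δ arrays were above 16, the ceiling of a plain 16-bit scanner value, so the fold of 2.32 (difference 1.22 ± 0.12, adjusted p = 0.000966) holds on the deposited scale. Of the other plasmacytoid dendritic cell markers, Siglech, the most specific, was at 5.16 to 5.40 on all arrays with a difference of 0.06 (adjusted p = 0.647), and 0 others rose. Parp14, a mono-ADP-ribosyltransferase, read 8.93, 9.10 and 8.77 against 9.79, 9.52 and 9.48. The groups did not overlap, and Parp14 rose by 0.66 ± 0.11 (adjusted p = 0.00861), but its difference was 0.58 or 0.57, under the threshold, without LFB WT/WT replicate 3 or LFB Δ/Δ replicate 1. Rtp4 (0.58, adjusted p = 0.0506) missed both thresholds by a narrow margin and passed without LFB WT/WT replicate 2 (adjusted p = 0.0193). Xaf1, which opposes the apoptosis inhibitor XIAP, had a difference of 0.44 (adjusted p = 0.00998), and Herc6, the mouse ligase for Isg15, one of 0.27 (adjusted p = 0.0951). Ifi35 had overlapping groups and a difference of -0.04 (95% interval -0.21 to 0.13).

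Of 4 genes of cytosolic RNA sensing 1 rose, where 3.88% of all genes did. Ifih1, which encodes MDA5, the sensor of long double-stranded RNA, read 8.83, 8.96 and 8.70 against 9.29, 9.38 and 9.39. Its groups were apart, with a difference of 0.53 (1.44-fold, adjusted p = 0.00461) that was under the fold threshold and passed it without LFB WT/WT replicate 2 (0.59). Dhx58 (LGP2), which tunes RIG-I and MDA5, had a difference of 0.32 (adjusted p = 0.00998), and Ddx58, which encodes RIG-I, one of 0.24 (adjusted p = 0.129). Trim25, the ubiquitin ligase linked to RIG-I activation, read 9.91, 9.93 and 9.81 against 10.62, 10.49 and 10.44. It was the only one of these 4 genes to pass, rising by 0.63 ± 0.07 (1.55-fold, adjusted p = 0.00141), close to the fold threshold and under it without LFB Δ/Δ replicate 1 (0.58).

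Of the 4 transcription factors Irf7 rose, where 3.88% of all genes did. Irf7, which drives the second wave of interferon-α genes, read 7.75, 7.73 and 7.42 in LFB WT/WT and 8.33, 8.93 and 8.51 in LFB Δ/Δ. The groups did not overlap, and the difference was 0.95 ± 0.16 (1.94-fold, adjusted p = 0.00847). Stat2 and Irf9, partners in the ISRE-binding complex, did not pass the test. Stat2 read 13.14, 13.07 and 12.90 against 13.57, 13.52 and 13.28, a difference of 0.42 (adjusted p = 0.0306) under the fold threshold. Irf9 read 8.62, 8.68 and 8.60 against 8.90, 8.86 and 8.78, a difference of 0.21 (adjusted p = 0.0537) that was -0.01 with housekeeping centring. Irf1, the factor of the interferon-γ response, read 7.80, 7.78 and 7.82 against 7.73, 7.43 and 7.60. It was the only member with all LFB Δ/Δ arrays below all LFB WT/WT arrays, with a difference of -0.22 (adjusted p = 0.144) that did not pass the test. A second, dimmer cluster of Irf1 had a difference of -0.17 (adjusted p = 0.123).

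The genes upstream of the interferon-stimulated genes were read from 5 lists with 57 measured members, of which 9 rose, 2 fell and 46 did not pass the test, where 3.88% of all genes rose and 2.94% fell. Of 19 interferon genes 0 passed. All values of these genes were between 3.72 and 5.91, and 14 of the 19 were below the median cluster in both genotypes. Ifnb1, the first interferon that fibroblasts release, read 4.91, 5.06 and 5.06 against 5.07, 5.21 and 5.10. Its groups lay side by side without overlap, and the difference of 0.12 (95% interval -0.04 to 0.28, adjusted p = 0.352) did not pass the test. Interferon protein was not measured, and probes that read near the dim end may miss a small change. The type I receptor chains were bright in both genotypes. Ifnar1 had a difference of 0.07 (adjusted p = 0.611) and Ifnar2 one of -0.13 (adjusted p = 0.468). Of the interferon-γ receptor chains, Ifngr1 read 11.66, 11.58 and 11.40 against 12.34, 12.08 and 12.07 and rose by 0.62 (1.53-fold, adjusted p = 0.00739), close to the fold threshold. Ifngr2 had a difference of 0.56 (adjusted p = 0.0324), just under it. Of 4 measured kinases and STATs of the pathway 0 passed the fold threshold.

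Of 9 inhibitors of interferon signalling 1 rose and 2 fell, where 3.88% of all genes rose and 2.94% fell. Socs3, which blocks JAK kinases, read 7.68, 7.76 and 7.69 in LFB WT/WT and 7.02, 7.20 and 6.78 in LFB Δ/Δ, and fell by 0.71 (adjusted p = 0.00524). Trim24, a chromatin-bound co-regulator known to restrain these genes, fell by 0.73 (adjusted p = 0.000741). Both had groups that did not overlap. Ptpn6 (SHP-1), a phosphatase of haematopoietic cells, rose by 2.04 (4.10-fold, adjusted p = 0.000749). Socs1 (-0.31, adjusted p = 0.0256) and Ptpn1 (0.50, adjusted p = 0.0018) stayed under the fold threshold, with groups that did not overlap. These 2 genes were named after their values were seen.

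Of 19 nucleic acid sensors, adaptors and interferon regulatory factors outside the list 7 rose, where 3.88% of all genes did. The largest differences were those of Tlr7 (3.15, adjusted p = 0.000319) and Tlr8 (2.78, adjusted p = 0.000471), the endosomal sensors of single-stranded RNA. Tlr7 read 9.85, 9.33 and 8.96 in LFB WT/WT and 12.79, 12.30 and 12.49 in LFB Δ/Δ, and its groups did not overlap. The DNA sensor Aim2 (1.77) and the myeloid factor Irf8 (1.38) also rose. Tlr3, a sensor of double-stranded RNA found in fibroblasts as well as in myeloid cells, rose by 0.66 (1.58-fold, adjusted p = 0.00189). Irf3, the factor that starts interferon-β transcription, had a difference of -0.14 (adjusted p = 0.391), Cgas one of 0.22 (adjusted p = 0.13) and Sting1 one of -0.12 (adjusted p = 0.428), and these 3 did not pass the test.

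**Figure D5:**
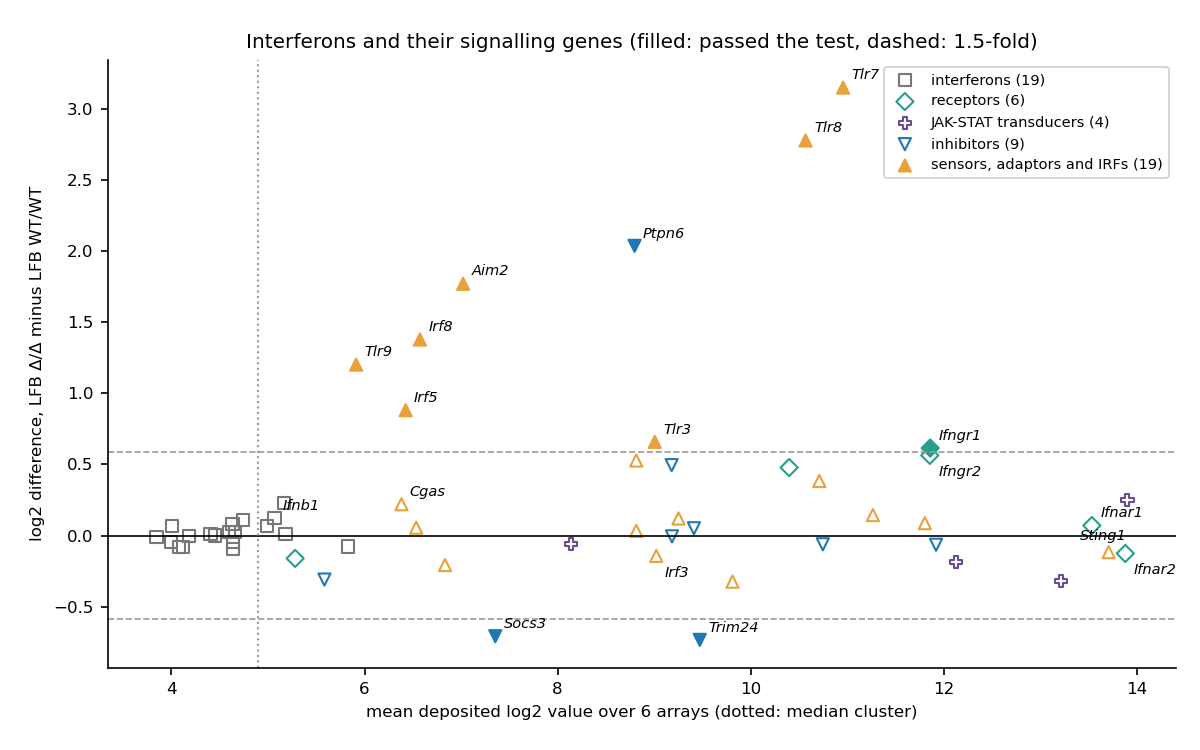
Log2 difference, LFB Δ/Δ minus LFB WT/WT (y axis), against the mean deposited log2 value over 6 arrays (x axis) for the interferons and 4 groups of signalling genes (symbols, with the number measured), filled where the test was passed. The 19 interferons lie near 0 at the dim end, and Tlr7 and Tlr8 lie highest.

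A second list of 75 measured interferon-stimulated genes, none of them members, was read beside them. Of these 17 rose and 0 fell, with a median log2 difference of 0.24, below the 0.41 of the members. Over all genes 3.88% rose. Without a fold threshold 29 passed, where 10.9% of all genes were higher. Cd274, the ligand PD-L1 of the T cell receptor PD-1, read 9.22, 8.30 and 7.82 in LFB WT/WT and 10.96, 11.02 and 10.95 in LFB Δ/Δ, a difference of 2.53 (5.78-fold, adjusted p = 0.00222). Its LFB WT/WT arrays were spread over more than 1 and its LFB Δ/Δ arrays lay together. Ifi207, of the IFI200 family of nuclear DNA-binding proteins, rose by 2.15 (4.44-fold, adjusted p = 0.000101) and Ifi209, of the same cluster on chromosome 1, by 1.20 (adjusted p = 0.000546). In that cluster of 6 measured genes Ifi204 and Ifi211, named after their values were seen, had differences of 0.55 and 0.51 under the fold threshold. Ifi30, the lysosomal thiol reductase of antigen-presenting cells, rose by 1.19 (2.29-fold, adjusted p = 0.00132). Oas1a, above, completed the 5 largest rises.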

How the data were processed

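RNA of 6 cultures (3 LFB WT/WT and 3 LFB Δ/Δ, passage 2) was hybridised to Clariom D mouse arrays, 1 array per sample. The authors deposited log2 values made by robust multi-array averaging (RMA) with default settings of the Transcriptome Analysis Console, whose annotation version is not given in the sources used here. The quantile step of RMA aligns the arrays, so a change in total RNA is not seen. Some values exceed 16, and 387 clusters did so on every array, so the scale is not that of plain scanner values. The number of arrays limits the precision, and the 95% half-width of a member's difference was 0.13 to 0.72.

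Clusters were named from the platform annotation with symbols updated through RefSeq (GRCm38.p6). Of 65956 clusters 31292 named 1 gene, 1522 several and 33142 none, and only the first kind was used. In R 4.3.3, limma 3.58.1 (lmFit, then eBayes) compared the genotypes over the whole table, with no other term. A gene passed with a Benjamini-Hochberg p no higher than 0.05 and a fold change above 1.5, the study's thresholds. Those methods name no test for the arrays, and Student's t-test of the general statistics was an alternative. The fit was tested on simulated data.

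The members, gene lists and settings were chosen with earlier results of these data known. Named were all members, Atf4, 10 fixed pathway genes, up to 4 called genes with the largest difference of each pathway list, the 5 largest rises and falls among other interferon-stimulated genes, and of each marker list the 3 brightest genes with Ptprc, Adgre1, Csf1r and Siglech; not every gene so named is printed. Genes named outside this rule are marked. Alternatives were other tests, thresholds, filters, centrings, choices of cluster, the replicate number as a block and leaving out each array.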

Additional observations from a re-analysis of the deposited data

How the results depend on the processing

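Leaving out each array in turn kept every count within 1.5 times (members that rose 7 to 11, their median 0.33 to 0.44). Of 669 pairs of a member and an alternative 611 kept sign and call, 36 lost the call, 11 gained it and 11 changed sign. Oas2 and Bst2 passed under all 21 alternatives, and 3 members were not tested under the filter on dim clusters. With Student's t-test per cluster 3 members, 9 other interferon-stimulated genes and 1647 clusters (of 3199) passed. Without a fold threshold 18 members, 29 other interferon-stimulated genes, 19 pathway genes and 8542 clusters passed. With a fold above 2 these were 5, 10, 6 and 1316, and with limma's treat against 1.5-fold 2, 6, 5 and 887. Adjustment over clusters of 1 gene left 2129 called clusters, since fewer clusters were tested. Centring on housekeeping genes gave 6 members that rose, a median of 0.20, 1 other interferon-stimulated gene that fell and 5058 clusters, and it turned the sign of Mx1 (-0.023), Oasl1 (-0.00047), Irf9 (-0.0074), Gbp2 (-0.10) and Cxcl10 (-0.11). Mx1 was -0.013 with dim values raised to the median. Ifi35 was 0.011 with centring on bright clusters and -0.090 to 0.018 with arrays left out. Samhd1 was -0.11 to 0.016 and Cxcl10 -0.012 to 0.19 with arrays left out. The cause of these changes was not tested. With the replicate number as a replicate block 10 members rose and 3060 clusters passed, and it changed no call of a member. Same-numbered arrays did not deviate together (correlations -0.04, -0.01 and -0.22), so the numbers were not taken as pairs. Dim genes, such as Mx1, Cxcl10 and most interferons, limit what could be seen.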

Other observations

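Some interferon-stimulated genes share a cluster with relatives and were left out of the counts above, and their values were looked at after the other results were known. The cluster that names Ifi203 with near copies had a mean of 7.73 in LFB WT/WT against 8.33 in LFB Δ/Δ, a log2 difference of 0.60 (limma, adjusted p = 0.0044). That of Ifi202b and Ifi205 had means of 6.28 and 6.68, a difference of 0.40 (adjusted p = 0.0331), under 1.5-fold. The guanylate-binding clusters of Gbp2b with Gbp5 and of Gbp10 with Gbp6 had differences of 0.03 (adjusted p = 0.797) and 0.39 (adjusted p = 0.165), and neither passed the test. Which gene of a shared cluster a signal came from cannot be told apart.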
